A study of Rattus norvegicus with 10 samples.

Results

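The amygdala and the nucleus accumbens are compared here in 4 of the 10 arrays of a study of the rat brain after cocaine. Each region had 1 array from cocaine-treated rats and 1 from saline-treated controls, and the members were taken by the region that the labels name, with no measured value. The other 6 arrays came from the caudate putamen, the prefrontal cortex and the ventral tegmental area, again with 1 cocaine and 1 saline array each. Total RNA was hybridised to a single-colour oligonucleotide array with 8740 probe sets other than controls. The deposited value is an expression index, a linear intensity from a model over the probes of a probe set. The labels name neither strain, age, sex, dose nor duration of cocaine, nor the number of rats behind an array.

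The amygdala is a group of nuclei in the temporal forebrain that attaches emotional value to stimuli, and its basolateral part holds mainly glutamatergic pyramidal-like neurons akin to those of the cortex. The nucleus accumbens is the ventral part of the striatum, built mainly of GABAergic medium spiny projection neurons. Medium spiny neurons carry either the D1 or the D2 dopamine receptor and the peptides that go with them, substance P with the first and enkephalin with the second. Both regions receive dopamine axons from the midbrain, where cocaine blocks the reuptake of the transmitter.

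Differences between the regions were taken as log2 of the amygdala index over the accumbens index, cocaine array with cocaine array and saline array with saline array. They were tested with limma in a fit of region and treatment over all 10 arrays. Benjamini-Hochberg adjustment ran over the 8592 probe sets above 0 on the 4 arrays, at a threshold of 0.05. Each error below is the standard error (SE) of that fit on the log2 scale, each region has n = 2 arrays, and a difference below 0 means a higher index in the accumbens. The fit removes a shift between cocaine and saline that is common to all regions. Since each region has no more than 1 array per treatment, the SE includes any effect of cocaine that differs between regions. Whether arrays came from separate animals is not known.

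The saline array of the amygdala stood apart from its cocaine partner. Over log2 values, the amygdala arrays correlated with r = 0.958, against 0.989 for the accumbens arrays. The amygdala saline array was closest to the prefrontal cocaine array (r = 0.983), and the amygdala cocaine array was as close to the prefrontal saline array as to the accumbens cocaine array (r = 0.984 each). The median absolute log2 ratio of cocaine to saline was 0.22 in the amygdala and 0.21 in the prefrontal cortex, against 0.10 in the accumbens, 0.085 in the caudate putamen and 0.14 in the ventral tegmental area. Exact zeros, which were treated as missing, numbered 91 on the amygdala saline array, 42 on its cocaine partner and 8 and 12 on the accumbens saline and cocaine arrays. What set the amygdala saline and prefrontal cocaine arrays apart was not tested, so results are given with the cocaine pair and the saline pair side by side. Both amygdala arrays had more Sv2b and Olfm1 and less Drd1 and Cartpt than both accumbens arrays, and Gda was high on all 4. These 5 genes were chosen with results of these arrays known, so they are no independent check of the labels. The prefrontal arrays lay on the amygdala's side of the accumbens for the first 4 genes, while Gda read 24751 and 22798 in the amygdala and 12168 and 11945 in the prefrontal cortex. Whether a label was swapped was not tested.

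The promoters of 3 genes are shown because they belong to genes at opposite ends of the comparison and differ in the short motifs they hold. Each is the 250 bases before the gene's start in RefSeq (build GRCr8), 5′ to 3′ on the gene's own strand. The promoter of Cartpt, which was higher in the accumbens, lies on the minus strand at chr2:32991236-32991485, and its capitals mark a full cAMP response element, the site of the CREB family, from -142 to -135. The promoter of Tac1, also higher in the accumbens, lies on the plus strand at chr4:36645333-36645582, and its capitals mark the core of that element, read on the opposite strand, from -206 to -202. The promoter of Olfm1, higher in the amygdala, lies on the plus strand at chr3:31931086-31931335, and its capitals mark 2 GC boxes, the site of the Sp1 family, both read on the opposite strand.
Cartpt: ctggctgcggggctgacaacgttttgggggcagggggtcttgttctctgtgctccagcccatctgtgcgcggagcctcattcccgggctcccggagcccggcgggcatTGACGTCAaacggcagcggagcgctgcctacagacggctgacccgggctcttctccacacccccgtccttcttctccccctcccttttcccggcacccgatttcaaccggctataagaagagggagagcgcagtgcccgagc
Tac1: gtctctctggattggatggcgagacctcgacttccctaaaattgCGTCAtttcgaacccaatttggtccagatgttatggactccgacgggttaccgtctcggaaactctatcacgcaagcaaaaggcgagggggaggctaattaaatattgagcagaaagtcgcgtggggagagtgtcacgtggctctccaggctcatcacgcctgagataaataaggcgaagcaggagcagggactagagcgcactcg
Olfm1: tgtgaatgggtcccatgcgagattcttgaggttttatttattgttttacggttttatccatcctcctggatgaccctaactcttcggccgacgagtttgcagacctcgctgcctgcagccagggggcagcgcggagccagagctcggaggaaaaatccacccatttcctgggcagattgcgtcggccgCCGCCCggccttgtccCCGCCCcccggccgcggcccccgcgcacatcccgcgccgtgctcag
Of the 19 genes called between the regions, 17 had such a promoter in the table. Searched on both strands, the full element (TGACGTCA) was found in 1 of 10 promoters of the accumbens genes and in 0 of 7 of the amygdala genes, against 1.59% of all 33469 promoters of this length. Its core (TGACG), which every full element contains, was found in Cartpt and Tac1 and, on the amygdala side, in Basp1 and Gabbr2, against 18.2% of all promoters. The GC box (GGGCGG) was found in 5 of the 7 amygdala promoters, those of Basp1, Gabbr2, Nrgn, Olfm1 and Vsnl1, and in 2 of the 10 accumbens promoters, those of Btg1 and Ptpn5, against 30.5% of all. These matches describe the letters of the window and no more.

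Few probe sets were called between the regions. With 1 array per region and treatment, the number of calls is no count of the genes that differ. At an adjusted p under 0.05, 10 probe sets were higher in the amygdala (0.116% of those tested) and 15 were higher in the accumbens (0.175%), which makes 25 in all (0.291%). After quantile normalization the split was 12 against 9. Unadjusted, 352 had a p under 0.05. The 23 of these 25 with a single gene symbol stood for 8 genes higher in the amygdala and 11 higher in the accumbens. Of the amygdala genes, 5 were on the list of excitatory forebrain neuron markers, and of the accumbens genes, 8 were on the list of striatal projection neuron markers. These lists held 16 and 26 measured genes, of 4692 with a single symbol and a value on all 4 arrays. Both were drawn up with earlier results of these data known, so the counts are no independent support. At least 2-fold apart in both pairs were 9 probe sets with the higher value in the amygdala (0.105%) and 8 with the higher value in the accumbens (0.0931%), and at least 1.5-fold apart were 28 (0.326%) and 36 (0.419%). All 25 called probe sets had the same sign in both pairs, against 4201 of all 8592 (48.9%), a property that the test itself favours. In the cocaine pair alone, 21 probe sets were at least 2-fold higher in the amygdala and 23 in the accumbens, and in the saline pair alone 33 and 61.

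The number of calls rested on single arrays, although none of the 25 changed sign in any alternative setting that gave it a value (18 to 20 settings each). Limma called 60 probe sets without the amygdala saline array, 49 without the amygdala cocaine array, 2 without the accumbens saline array and 0 without the accumbens cocaine array, where 166 had an unadjusted p under 0.05. It called 2 without either of the caudate putamen arrays, 5 without either of the ventral tegmental arrays and 182 without the amygdala saline and prefrontal cocaine arrays together, which kept all 25.

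**Figure D1:**
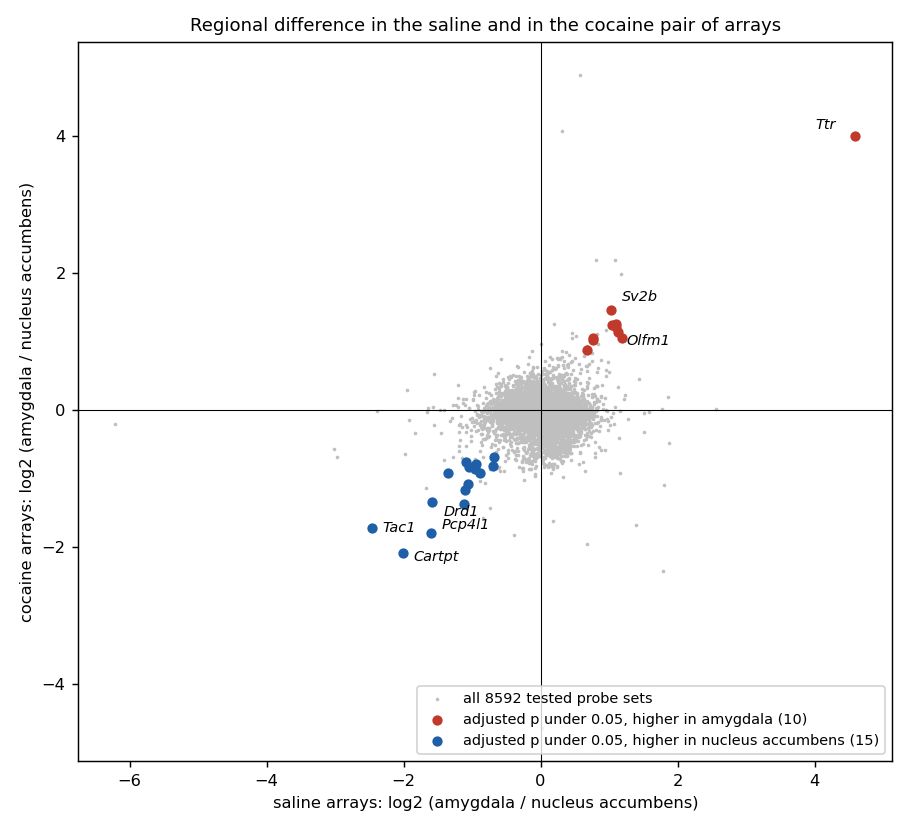
Log2 of the amygdala index over the accumbens index for each of 8592 probe sets, in the saline pair of arrays (horizontal axis) and in the cocaine pair (vertical axis), with probe sets at an adjusted p under 0.05 in colour. The 10 red and 15 blue points lie along the diagonal, with Ttr far above the rest, while the grey cloud has no such slope (r = 0.10 between the pairs over all tested probe sets).

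Sv2b was called higher in the amygdala by both of its probe sets. Sv2b, a transporter-like protein of synaptic vesicles, had an index of 12918 (saline) and 16481 (cocaine) in the amygdala and of 6308 and 5985 in the accumbens. Both amygdala arrays were thus above both accumbens arrays, by 1.25 ± 0.14 on the log2 scale (2.37-fold, limma adjusted p = 0.0263), and the other Sv2b probe set gave 1.15 ± 0.16 (adjusted p = 0.0466). The prefrontal arrays, at 14111 and 12971, lay with the amygdala, and the caudate putamen at 7620 and 7057 lay near the accumbens. Stx1a, a syntaxin of the vesicle fusion machinery, read 4493 and 5775 against 2322 and 2575 by its dimmer probe set, without passing the test (1.06 ± 0.18, adjusted p = 0.109). Its brighter probe set read 16186 and 13876 against 13507 and 14753 (0.09 ± 0.11), so the probe sets of Stx1a disagree.

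Olfm1, a secreted olfactomedin-domain glycoprotein of neurons, was higher in the amygdala by both of its probe sets. The first read 15793 and 17272 in the amygdala and 7239 and 7801 in the accumbens, a difference of 1.14 ± 0.12 (limma adjusted p = 0.0256), and the other differed by 1.16 ± 0.15 (adjusted p = 0.0408). The order of the regions was the prefrontal cortex first, with 23234 and 18953, then the amygdala and the accumbens, with the caudate putamen (4613 and 4758) and the ventral tegmental area (4454 and 4170) lowest. By the other probe set those last 2 regions stood the other way round, at 2470 and 2586 against 4939 and 5102. Nrn1, or neuritin, an activity-induced protein that promotes neurite outgrowth, had 6120 and 6541 in the amygdala against 2846 and 2728 (1.18 ± 0.16, adjusted p = 0.0408). Basp1, a membrane-bound protein of growing axon endings, differed less, with 11057 and 12151 against 6934 and 6576 (0.78 ± 0.10, adjusted p = 0.0408). For both genes, both amygdala arrays lay above both accumbens arrays. The share of all probe sets separated in this way was not counted, here or for genes below.

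Calcium signalling gave 2 genes higher in the amygdala. Nrgn, or neurogranin, a postsynaptic protein that binds calmodulin in forebrain principal neurons, had 18436 and 17014 in the amygdala and 8097 and 8156 in the accumbens (1.12 ± 0.10, limma adjusted p = 0.0115). Its brighter probe set differed by 0.78 ± 0.12 and missed the threshold (adjusted p = 0.0784). In the caudate putamen Nrgn read 16678 and 17197, near the amygdala and above both accumbens arrays. Vsnl1, a neuronal calcium sensor, had 7928 and 9400 against 4652 and 4540 (0.91 ± 0.13, adjusted p = 0.0444). Gabbr2, a subunit of the metabotropic GABA-B receptor, had 7178 and 8459 against 4237 and 4133 (0.90 ± 0.12, adjusted p = 0.0408). That call rests on 1 of 3 probe sets, since the other two differed by 0.03 ± 0.12 and 0.11 ± 0.09.

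Ttr stood far outside the range of the neuronal genes. It encodes transthyretin, the carrier of thyroid hormone that the choroid plexus of the brain ventricles makes in large amounts. The index was 41154 and 29441 in the amygdala and 1700 and 1832 in the accumbens, 4.30 ± 0.42 apart on the log2 scale (19.7-fold, limma adjusted p = 0.0161). In the caudate putamen it was 34312 on the saline and 11221 on the cocaine array, and elsewhere it lay between 1692 and 4431. A second probe set for Ttr was listed at 0 on both amygdala arrays and at 565 and 935 in the accumbens. It was also listed at 0 on both caudate putamen arrays, and since zeros are treated as missing it gave no difference. Of the list of 14 choroid plexus and meningeal genes, Ttr alone passed the test. The list summed to an index of 97737 and 83014 in the amygdala and of 73381 and 58581 in the accumbens, but without Ttr the other 13 summed to 56582 and 53573 against 71681 and 56749. Enpp2 read 0.73 ± 0.18 higher in the amygdala (adjusted p = 0.426) and Ptgds read -1.08 ± 0.33 (adjusted p = 0.663), and Igf2, Kl, Aqp1 and Igfbp2 lay between -0.19 and 0.11 on the log2 scale. The part of choroid plexus tissue in the Ttr difference was not tested.

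**Figure D2:**
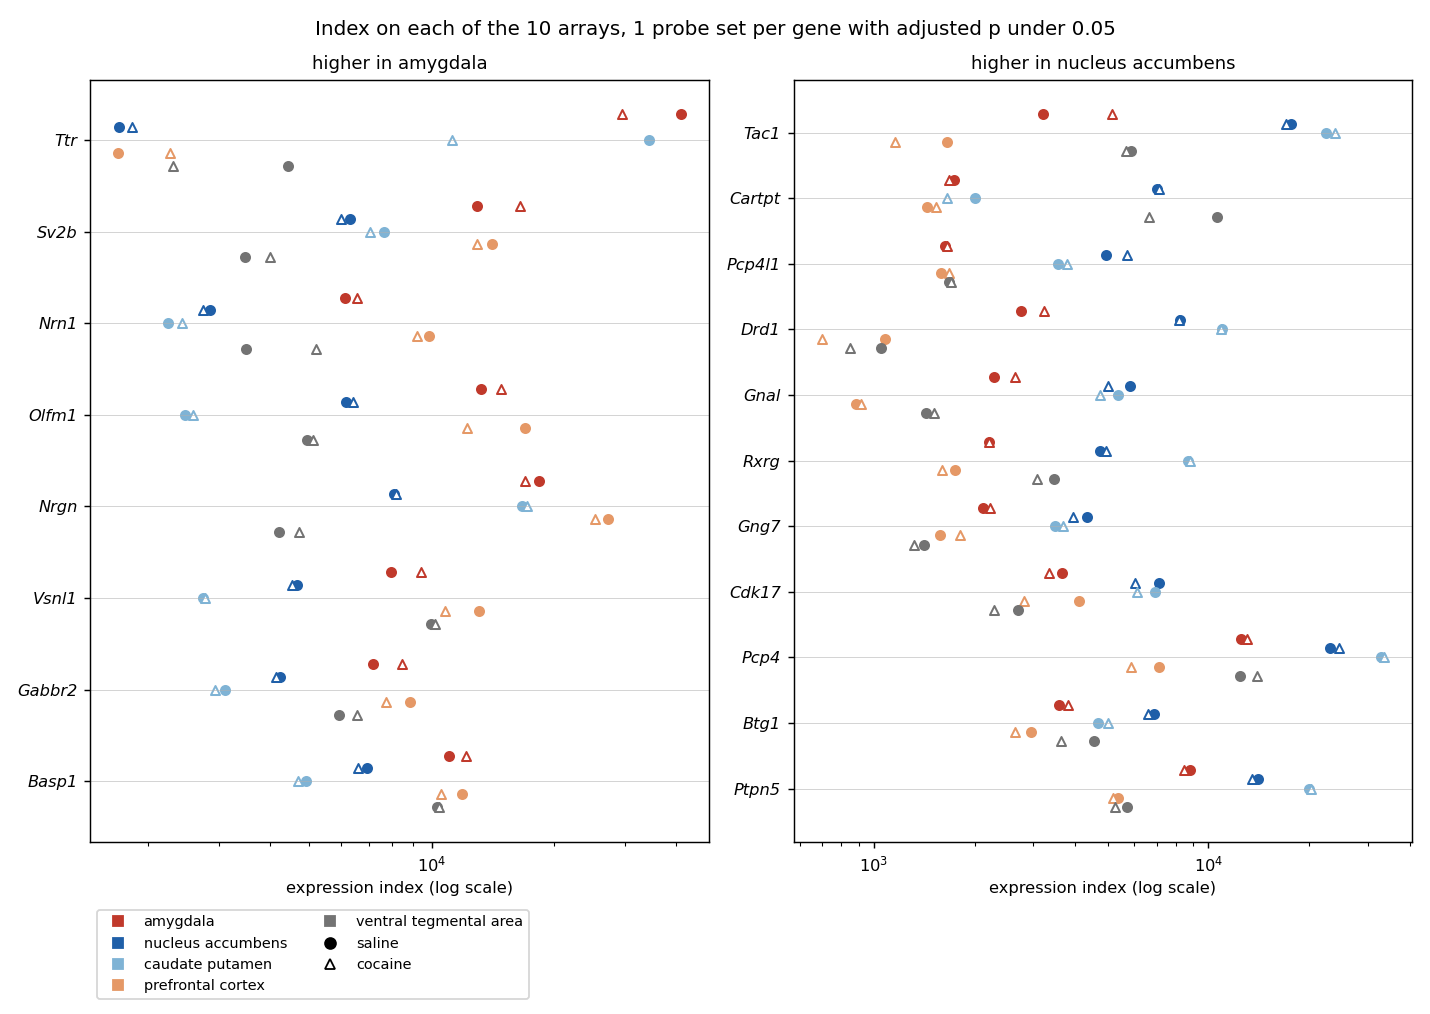
Expression index on a log axis for 8 genes higher in the amygdala (left) and 11 higher in the accumbens (right), 1 probe set each, on all 10 arrays, with filled circles for saline and open triangles for cocaine. In every row the red and dark blue symbols are apart. On the left the prefrontal values (orange) mostly lie by the amygdala, as for Olfm1, and on the right the caudate putamen values (light blue) mostly lie by the accumbens or above it, as for Tac1.

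Neuropeptide genes gave the largest differences on the accumbens side. Tac1, the precursor of substance P, had 3211 and 5158 in the amygdala and 17690 and 17045 in the accumbens. The accumbens arrays were close to each other and far above both amygdala arrays, with a difference of -2.09 ± 0.23 on the log2 scale (4.27-fold, limma adjusted p = 0.0265), with 22518 and 23885 in the caudate putamen. A second Tac1 probe set was listed at 0 on the amygdala saline array and read 2293 on its cocaine partner against 6338 and 6101 in the accumbens, so it was not tested. Cartpt, the precursor of the cocaine- and amphetamine-regulated transcript peptides, had 1731 and 1672 against 6999 and 7116 (4.15-fold, -2.05 ± 0.18, adjusted p = 0.0115). In the caudate putamen it read 2013 and 1655, near the amygdala, and its highest values were in the ventral tegmental area (10588 and 6627).

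The other 19 of 21 neuropeptide precursors measured did not pass the test. Penk, the enkephalin precursor of D2 medium spiny neurons, read 17900 and 15372 against 21566 and 20576 (-0.34 ± 0.09, limma adjusted p = 0.519). Pdyn, the dynorphin precursor, was level, with 9687 and 9006 against 9790 and 9132 and a 95% interval of -0.27 to 0.24. Sst and Npy, peptides of interneurons in both regions, differed by 0.18 ± 0.34 and -0.05 ± 0.17. Cck, the cholecystokinin precursor of cortical-type neurons, read 20542 and 18366 against 11180 and 11048, values that did not overlap, and did not pass the test (0.81 ± 0.26, adjusted p = 0.772).

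Drd1, Gnal, Gng7 and Ptpn5 were called higher in the accumbens. Drd1, the D1 dopamine receptor, had 2760 and 3228 in the amygdala and 8237 and 8166 in the accumbens by its brightest probe set (-1.46 ± 0.19, limma adjusted p = 0.0408). A second probe set was called too (-0.92 ± 0.13, adjusted p = 0.0408), and the third read -0.55 ± 0.13 (adjusted p = 0.386). The amygdala was nonetheless above the prefrontal cortex (1081 and 698) and the ventral tegmental area (1049 and 846), and below the caudate putamen (11001 and 10904), with no overlap between the caudate putamen, the accumbens and the amygdala. Gnal, the olfactory-type G protein alpha subunit that couples D1 receptors to adenylyl cyclase in the striatum, had 2279 and 2651 against 5826 and 5016 (-1.14 ± 0.13, adjusted p = 0.0299). Gng7, the gamma subunit that partners it, was lower in the amygdala by one probe set, 2115 and 2221 against 4344 and 3941 (-0.93 ± 0.12, adjusted p = 0.0408), while its brighter probe set gave -0.73 ± 0.12 (adjusted p = 0.109). Ptpn5, the striatum-enriched tyrosine phosphatase STEP, had 8807 and 8473 against 14058 and 13543 (-0.68 ± 0.09, adjusted p = 0.0408).

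Markers of D2 medium spiny neurons did not pass the test, though Drd2, Adora2a and Penk read lower in the amygdala in both pairs. Drd2 read 2687 and 2592 against 3419 and 3210 (-0.33 ± 0.15, limma adjusted p = 0.993), and Adora2a, the adenosine receptor of the same neurons, 5270 and 4968 against 6902 and 6613 (-0.40 ± 0.11, adjusted p = 0.505). Drd3, a receptor known from the ventral striatum, gave 0.04 ± 0.22 by its brighter and -0.41 ± 0.13 by its dimmer probe set. Drd1 was the 1 gene called among 46 receptors for monoamines, acetylcholine and opioids, and Oprm1, the mu opioid receptor, was level at 6540 and 6490 against 6563 and 6496. Whether the difference in Drd1 exceeds that in Drd2 was not tested.

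The remaining accumbens genes are striatal markers and regulators. Pcp4l1, a small calmodulin-regulator-like protein, had 1633 and 1656 against 4953 and 5713. It had the lowest adjusted p of the comparison (-1.69 ± 0.10, 0.00199 by limma) and was called in 19 of 20 alternative settings, more than any other gene. Its relative Pcp4, which binds calmodulin, had 12561 and 13040 against 23120 and 24528 (-0.90 ± 0.12, adjusted p = 0.0408). Rxrg, a retinoid X receptor of the striatum, had 2204 and 2215 against 4747 and 4949 (-1.13 ± 0.10, adjusted p = 0.0115), with 8696 and 8827 in the caudate putamen. Its other two probe sets read -0.50 ± 0.11 and -0.27 ± 0.17 and were not called. Cdk17, a neuronal PCTAIRE kinase, was called by both probe sets (-0.91 ± 0.12 and -0.75 ± 0.10, adjusted p = 0.0408 each). Btg1, an anti-proliferation gene, had 3568 and 3814 against 6882 and 6580 (-0.87 ± 0.12, adjusted p = 0.0494). The other Btg1 probe set read -0.74 ± 0.27 and was not called. A probe set with no symbol and 1 with several symbols, not named here, make up the 15.

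The other 3 regions were set beside these genes by their means. The same counts were not taken over all tested probe sets, so those below describe the called probe sets only. Of the 10 probe sets higher in the amygdala, the prefrontal mean was nearer to the amygdala for 9 and the caudate putamen mean was nearer to the accumbens for 8, and the highest region was the prefrontal cortex for 6 and the amygdala for 4. Of the 15 higher in the accumbens, the caudate putamen was nearer to the accumbens for 12, and the prefrontal cortex and the ventral tegmental area were each nearer to the amygdala for 14. The highest region was the caudate putamen for 7, the accumbens for 7 and the ventral tegmental area for 1, which is Cartpt.

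Genes were also grouped into 26 lists by cell type and function, each gene represented by its brightest probe set. Over all 4692 genes so represented, 7 were called higher in the amygdala (0.149%) and 10 in the accumbens (0.213%), with a median difference of 0.0015 on the log2 scale. Of 587 list genes measured, 15 were called, and 15 of the 26 lists held no called gene. In tissue samples, fewer cells of a type and less RNA per cell cannot be told apart.

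Of 26 markers of striatal projection neurons, 7 were called, all higher in the accumbens, and the median was -0.37. In both pairs 20 of the 26 read higher in the accumbens and 1 in the amygdala, against 24.0% and 24.4% of all genes, and the median was -0.42 in the cocaine and -0.36 in the saline pair. Tac1, Pcp4l1, Drd1, Gnal, Rxrg, Pcp4 and Ptpn5 are the called members. Arpp21, a cAMP-regulated phosphoprotein, read 3585 and 3773 against 6260 and 7876 and was not called (-0.93 ± 0.22, limma adjusted p = 0.354).

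Of 16 markers of excitatory forebrain neurons, 4 were called, all higher in the amygdala, namely Sv2b, Nrn1, Olfm1 and Vsnl1. The median was 0.15, and 11 of 16 read higher in the amygdala in both pairs, against 24.4% of all genes. Slc17a7, the vesicular glutamate transporter of cortical-type neurons, was not among those that differed (1387 and 1277 against 1360 and 1351, -0.03 ± 0.14). Its signal was dim, below the median index of 2280 over these arrays, so it does not show that the regions have equal Slc17a7 RNA. Hpca, or hippocalcin, a neuronal calcium sensor, ran the other way without passing (14298 and 14237 against 20312 and 19427, -0.48 ± 0.09, limma adjusted p = 0.237).

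GABA neuron genes other than the striatal ones gave no call among 15. Gad1, which makes GABA, read 7219 and 9106 in the amygdala against 17435 and 14662 in the accumbens, values that did not overlap (-0.98 ± 0.28, limma adjusted p = 0.58). Slc32a1, which loads GABA into vesicles, read 4061 and 4904 against 8205 and 6687 (-0.73 ± 0.20, adjusted p = 0.522). Calb1, a calcium buffer, read higher in the amygdala, 4335 and 5854 against 3499 and 3196 (0.59 ± 0.21, adjusted p = 0.905).

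Synaptic and signalling lists held 0 to 3 calls each. Sv2b was the 1 called of 35 genes of vesicle release and Gabbr2 the 1 of 14 GABA receptor genes, and 0 of 22 glutamate receptor and 0 of 42 ion channel genes passed, with medians of -0.03 and 0.06. Vsnl1 was the 1 called of 36 genes of calcium, protein kinase C and CaM kinase signalling. In that list Dgkb, a diacylglycerol kinase, read 705 and 1104 against 1869 and 1826 (-1.07 ± 0.25, limma adjusted p = 0.384). Gnal was the 1 called of 34 genes of cAMP and G protein signalling, where Gnb1, a G protein beta subunit, read 7564 and 7371 against 3919 and 4919 (0.77 ± 0.19, adjusted p = 0.404). The other probe sets of Gnb1 differed by 0.38 ± 0.20 and -0.13 ± 0.16. Nrn1, Olfm1 and Basp1 were the 3 called of 36 genes of neurite growth, cytoskeleton and adhesion.

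Among 32 receptors for peptides, stress hormones and steroids, Rxrg was the 1 called, and Nr4a2, an orphan nuclear receptor, read 1961 and 2190 against 1231 and 1138 (0.81 ± 0.17, limma adjusted p = 0.279). None of 22 immediate early genes, 36 growth factor genes or 9 genes of secretory granules passed the test. Fos, a first-wave activity gene, read 10464 and 7357 in the amygdala against 7880 and 8333 by one probe set (0.11 ± 0.19). Crh, the stress peptide known from the central amygdala, lay at 332 and 484 against 356 and 415, low on all 4 arrays.

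Markers of cells other than projection neurons gave no call, Ttr apart. None of 14 myelin, 15 astrocyte, 17 microglial and immune, and 18 vascular and blood genes passed, and neither did any of 15 genes of the neighbouring hypothalamus and thalamus or 13 of dopamine, serotonin and noradrenaline neurons. The summed myelin index was 133274 and 123278 in the amygdala against 139413 and 136876, with 8 of 14 genes lower in the amygdala and 0 higher in both pairs (median -0.08), against 24.0% and 24.4% of all genes. The astrocyte sum was 324040 and 275240 against 298312 and 314627, and the gene farthest apart was Vim, an intermediate filament (-0.96 ± 0.18, limma adjusted p = 0.161). The hypothalamic and thalamic sum was 47666 and 46323 against 46553 and 45675. The part of these cell types in the neuronal differences was not tested.

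Genes of basic cell machinery gave no call. Of 37 ribosomal protein genes, 26 read lower in the amygdala in both pairs and 0 higher, with a median of -0.17, against 24.0% of all genes lower in both. Rpl39 differed most (-0.57 ± 0.20, limma adjusted p = 0.953). The 31 genes of oxidative phosphorylation had a median of -0.35 in the cocaine pair and 0.06 in the saline pair, and none was called. None of 24 chaperone genes was called, with a median of -0.03.

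**Figure D3:**
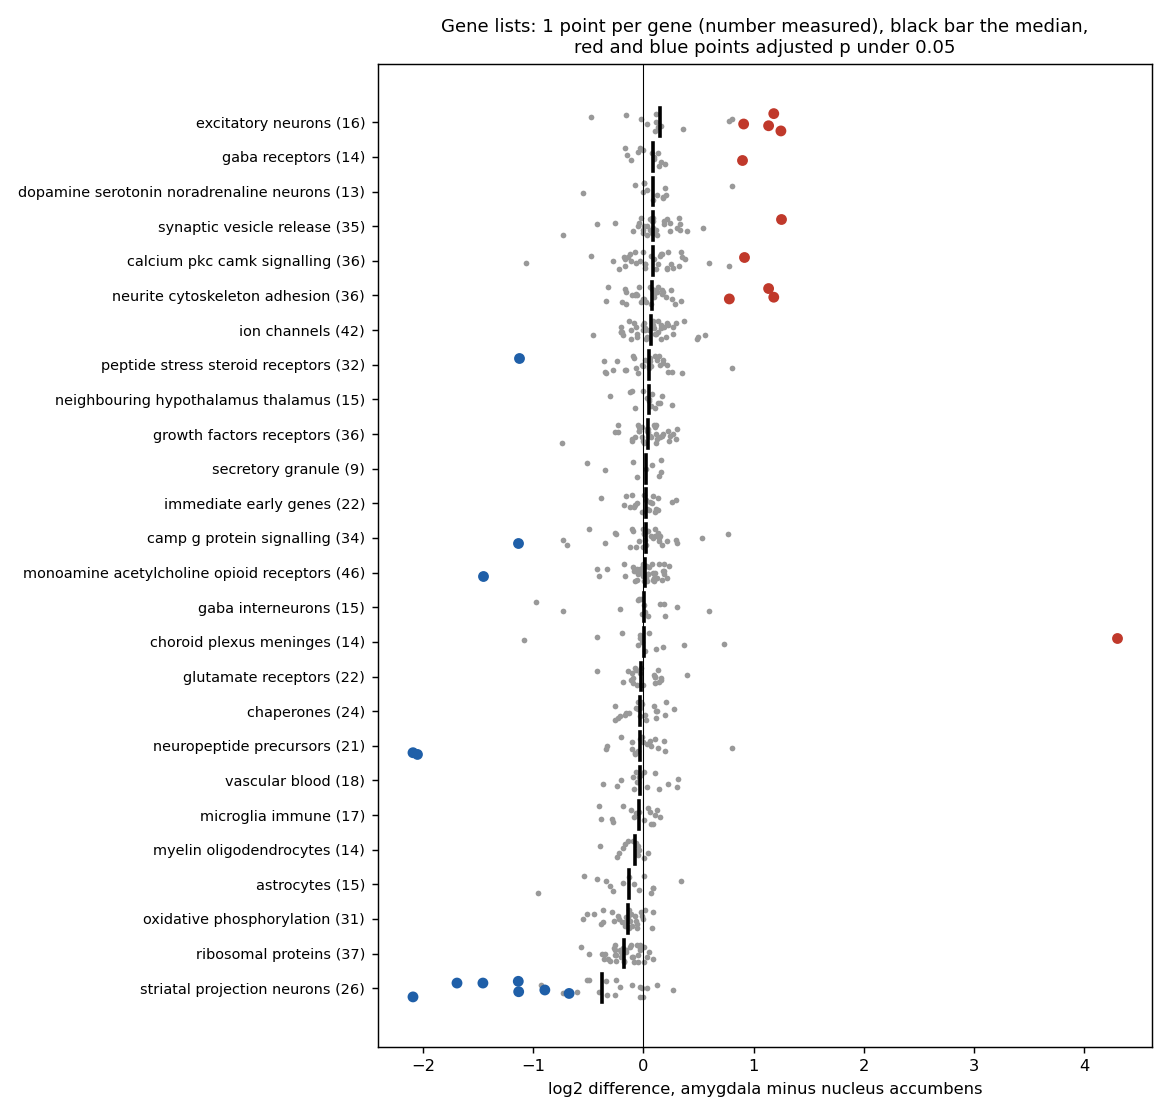
Log2 difference, amygdala minus accumbens, for the genes of 26 lists, 1 point per gene with the number measured in brackets and a black bar at each median; coloured points had an adjusted p under 0.05. The striatal list lies to the left with 7 blue points and a median of -0.37, the excitatory list has 4 red points, and most lists are centred near 0.

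The mean of the amygdala and the accumbens was tested against the mean of the caudate putamen, prefrontal cortex and ventral tegmental area. A call compares means, so it does not require both regions to be high or at a level in common. Of 8229 probe sets above 0 on each of the 10 arrays, limma called 27 higher in the pair (0.328%) and 1 lower (0.0122%), with 577 at an unadjusted p under 0.05. For 57 probe sets all 4 arrays lay above all 6 others (0.693%) and for 19 all 4 lay below (0.231%). Only 3 of the 27 called higher were also without overlap, and 7 were called in both comparisons. This count rested on single arrays too, with 277 calls without the amygdala saline array, 49 without the amygdala cocaine array, 2 and 1 without the accumbens saline and cocaine arrays, 11 without the prefrontal cocaine array, 1 without either caudate putamen array, and 4 and 3 without the ventral tegmental saline and cocaine arrays.

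Gda, the guanine deaminase or cypin that binds the postsynaptic scaffold, was the clearest gene held in common. It read 24751 and 22798 in the amygdala and 23236 and 23242 in the accumbens by its brightest probe set. The caudate putamen had 11013 and 11443, the prefrontal cortex 12168 and 11945 and the ventral tegmental area 7612 and 5071, all below the 4 limbic arrays (2.49-fold, 1.32 ± 0.10, limma adjusted p = 0.00633). A second probe set gave 1.42 ± 0.12 (adjusted p = 0.00738), and the third, dim everywhere, gave 0.07 ± 0.07. Between the amygdala and the accumbens Gda differed by 0.03 ± 0.16, with a 95% interval of -0.33 to 0.39. Cnih2, or cornichon, an auxiliary subunit of AMPA receptors, was the other gene without overlap, at 13610, 11935, 12600 and 11483 against at most 10843 elsewhere (0.47 ± 0.06, adjusted p = 0.0415).

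Other genes called higher in the mean of both regions, named here after their values were seen, followed different patterns. Penk had the lowest adjusted p (0.000203 by limma, 1.35 ± 0.06) through its low index in the prefrontal cortex (2462 and 2457) and the ventral tegmental area (5894 and 5545), while the caudate putamen at 28595 and 27745 was above both limbic regions. Nnat, or neuronatin, a small membrane proteolipid, read 20394 to 25926 on the 4 limbic arrays, above the caudate putamen and prefrontal cortex but below the ventral tegmental area at 35860 and 36142 (0.93 ± 0.09, adjusted p = 0.0114). Pde2a, a cGMP-stimulated phosphodiesterase, read 7922 and 9485 in the amygdala and 7781 and 7954 in the accumbens, at the level of the caudate putamen (0.76 ± 0.10, adjusted p = 0.0435). Drd1, Gnal, Pcp4l1, Ptpn5, Gng7 and both Olfm1 probe sets were called here as well as between the regions, so their calls show no shared level. For Pcp4l1 the amygdala, at 1633 and 1656, was near the prefrontal cortex (1585 and 1680) and the ventral tegmental area (1674 and 1698). Drd1 and Ptpn5 read higher in the caudate putamen than in both limbic regions. The 1 gene called lower was Apod, a lipocalin of myelinating and other glia, at 8338 and 8838 in the amygdala and 10430 and 9792 in the accumbens (-0.55 ± 0.08, adjusted p = 0.0444). It was higher in the caudate putamen (17616 and 16912) and the ventral tegmental area (18506 and 21751) and lower in the prefrontal cortex.

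**Figure D4:**
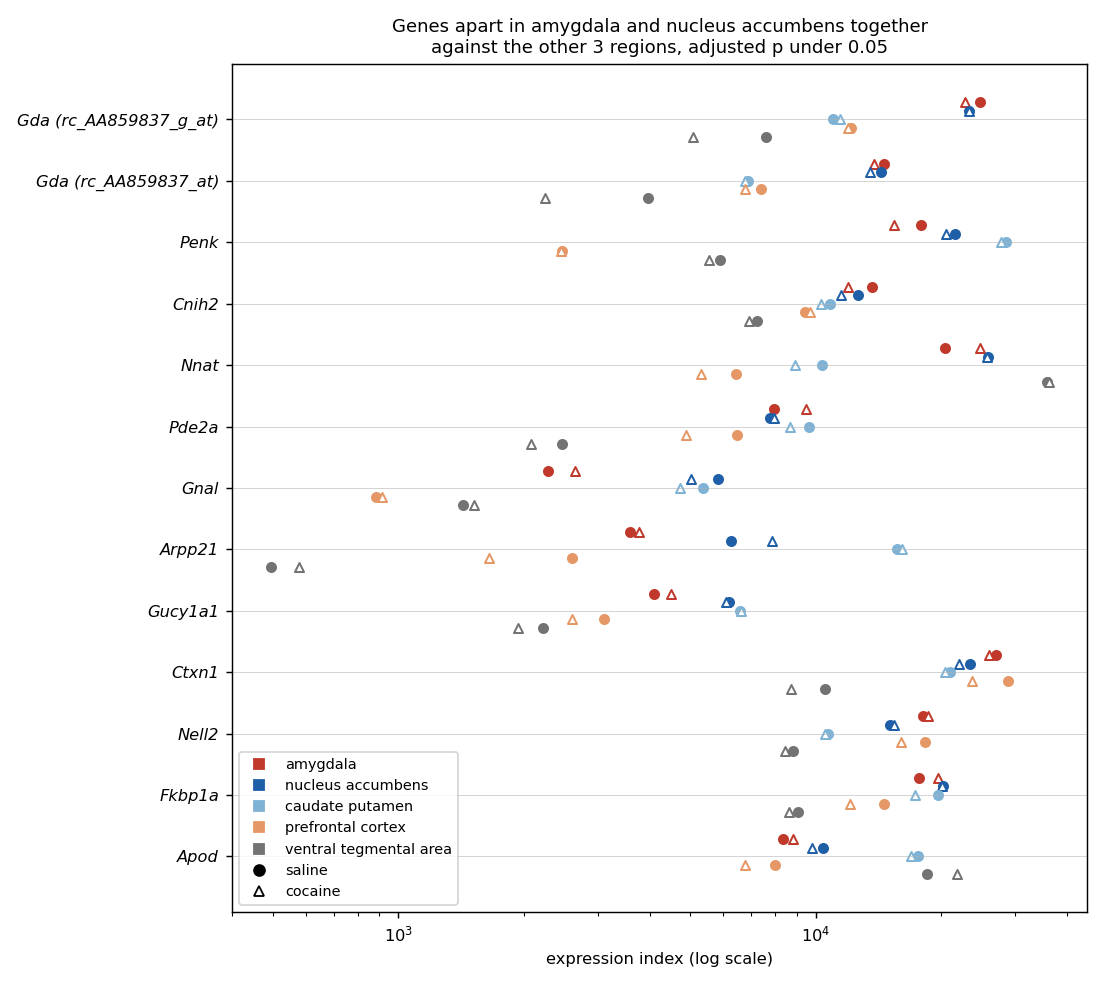
Expression index on a log axis on all 10 arrays for probe sets called in the comparison of both regions with the other 3, with filled circles for saline and open triangles for cocaine. For Gda and Cnih2 the red and dark blue symbols lie right of all others; for Penk the caudate putamen is higher still, and Apod runs the other way.

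Genes at a shared high level were taken as those in the top 5% of values on each of the 4 arrays. There were 344 such probe sets, of 519 in the top 5% on any of the 4, and 229 of them stood for 178 genes. Without the amygdala saline array the number was 377. Most were high throughout the brain, since 252 of the 344 (73.3%) were in the top 5% on all 10 arrays. Of the 344, 1 was called between the regions, Pcp4, and 9 were called higher in the mean of both regions than in that of the other 3. The median absolute difference was 0.10 on the log2 scale, and for 298 the 95% interval of the difference lay within 1.5-fold either way.

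The 15 genes with the highest minimum over the 4 arrays are of general cell function or of glia. They are COX1 and COX2 (cytochrome c oxidase, encoded in mitochondria), Rps29 and Rpl27a (ribosome), Actb, Tuba1b and Tmsb4x (cytoskeleton), Cst3 (a secreted protease inhibitor), Sparc and Apoe (secreted, largely glial), Mbp (myelin), Aldoc and Ckb (energy metabolism), Oaz2 (polyamine control) and Gnas (a G protein alpha subunit). Sparc was among them by 1 of its 4 probe sets, while the other 3 read 2477 to 11677 on these arrays and differed by -0.45 to -0.32. Zeros, treated as missing, also fell on bright probe sets. Other probe sets of COX1 and Rps29 were listed at 0 on the amygdala saline array and read 41928 to 54224 on its cocaine partner and the accumbens arrays. Another Apoe probe set read 56338 on the accumbens cocaine array and was listed at 0 on the accumbens saline and both amygdala arrays. The index of different probe sets is not on a common scale of RNA amount, so their order carries no rank of abundance. COX1 read 63417 and 48244 in the amygdala and 47807 and 56385 in the accumbens, and Mbp 42482 and 35205 against 39110 and 40606. Gnas read 45591 and 38442 against 37955 and 40159, with 20590 and 21571 in the caudate putamen.

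For all 15 the amygdala was higher in the saline pair and lower in the cocaine pair, with a median log2 difference of 0.23 and -0.21. The largest index on each array moved in the same way, by 0.41 in the saline pair and -0.22 in the cocaine pair. COX1 stood at 99.9% of its array's largest value on all 4, so that value is no separate reference for it. Rps29 stood at 94.3% to 94.6% of it, Sparc at 84.4% to 85.7% and Cst3 at 84.8% to 86.6%. The small differences among these genes moved with the upper end of each array, and its part in them was not tested. Rps29, Cst3 and Rpl27a were listed at 0 on the prefrontal cocaine array, so their fit had 3 residual degrees of freedom in place of 4.

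**Figure D5:**
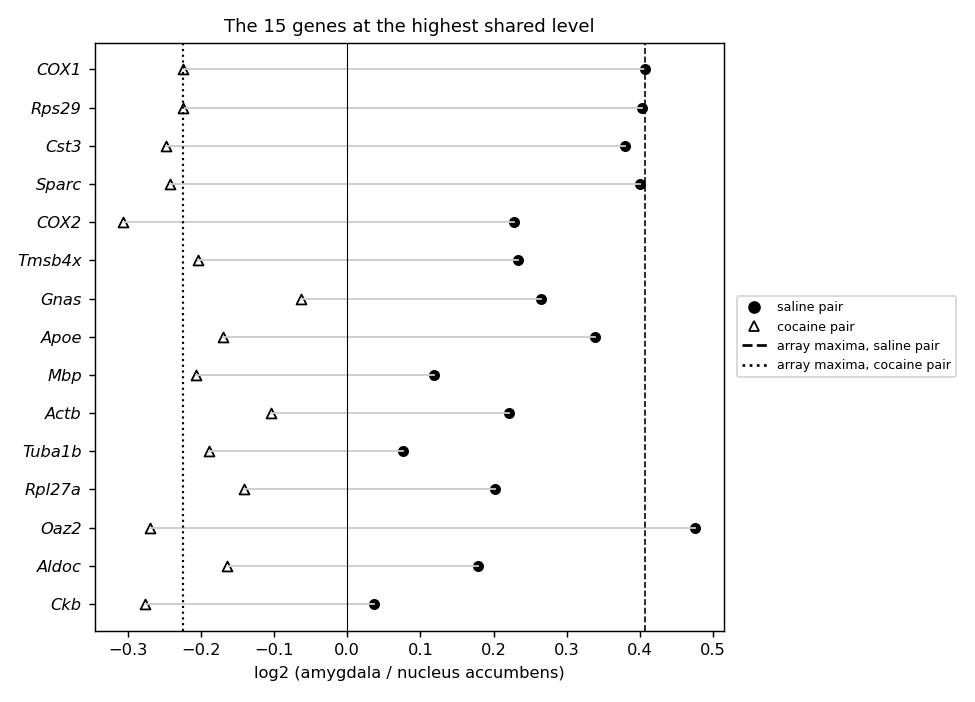
Log2 of the amygdala index over the accumbens index for the 15 genes at the highest shared level, in the saline pair (circles) and the cocaine pair (triangles), with dashed and dotted lines at the ratio of the arrays' largest values. All circles are right of 0 and all triangles left of it, with medians of 0.23 and -0.21.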

How the data were processed

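Per the labels, the value on each of the 10 arrays is dChip's expression index, which is model-based over a probe set's probes. As deposited, it is a linear intensity. Its version, model and scaling between arrays, and the number of animals per array, are not given in these sources. The median index per array lay between 2211 and 2343, and precision is limited by how few arrays there are. Control probe sets (59 of 8799) were left out. The annotation gave 1 symbol for 7006 probe sets, several for 308 and none for 1426, and only the first are named. Looking symbols up in the RefSeq gene table (assembly GRCr8) changed 0 of them. No further normalization was applied, zeros were treated as missing and log2 was taken with no pseudocount.

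Testing used limma 3.58.1 under R 4.3.3 (lmFit and eBayes with an intensity trend, region plus treatment, 4 residual degrees of freedom), two-sided, with Benjamini-Hochberg adjustment at 0.05. Because the labels do not say that arrays hold separate animals, p-values reflect only how far these samples spread, which may be technical. The treatments served as pairs, the labels giving no replicate numbers. Named genes were the 14 highest and 14 lowest called differences, 1 probe set per gene, filled by p where fewer passed. For both regions against the other 3 the rule took up to 8 called genes each way without overlap, for shared high level 15 genes, and from each list up to 4 members with the largest difference, besides the 5 marker genes. Other genes are named as examples chosen after their values were seen. The members, lists and named genes were chosen with earlier results of these data known, so no list supports a direction independently. Alternatives changed the treatment of zeros, a floor at the 20th percentile of values above 0 (an index of 1028), a filter on the upper 60% by mean, scaling, the variance trend, the treatment term and the arrays in the fit. Leaving out arrays of the other 3 regions, or the amygdala saline and prefrontal cocaine arrays together, was added after seeing the data.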

Additional observations from a re-analysis of the deposited data

Results flagged for a closer look

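Of 117 probe sets named for the regions or from the lists, 10 differed in opposite directions in the saline and the cocaine pair and by at least 1.5-fold in 1 of them. Each pair is 1 array against 1 array, so whether the pairs differ was not tested, and none of the 10 was called between the regions. Log2 differences, amygdala minus accumbens, are given for the saline pair first. Among immediate early genes, Fosl1 gave 0.63 and -0.12 and Jund 0.30 and -0.66. The growth factor gene Fgf1 gave 0.60 and -0.057, the leukocyte gene Cd53 -0.70 and 0.15, and Vwf, a protein of vessel walls, 0.63 and -0.017. Of the mitochondrial genes, Atp5pb gave -1.13 and 0.11 and Ndufb5 0.055 and -0.83. Of the chaperone genes, Hspa2 gave 0.70 and -0.14, Dnaja1 0.14 and -0.66 and Hsph1 0.18 and -0.65. In 9 of the 10, all but Hspa2, the amygdala arrays were farther from each other than the accumbens arrays were. Of all 8592 probe sets, 331 (3.85%) had this pattern.

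The 15 genes at the highest shared level had a median difference of 0.23 in the saline pair and -0.21 in the cocaine pair, with every gene on opposite sides of 0, and this was not tested either.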

How the results depend on the processing

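Between the amygdala and the accumbens 25 probe sets were called. The total called was 7 with zeros raised to the floor and 7 with the floor alone (5 of the 25 in each), 11 after scaling arrays to 1 median and 5 without the intensity trend (all among the 25). It rose to 54 with the 4 arrays alone (1 residual degree of freedom) and to 182 without the amygdala saline and prefrontal cocaine arrays. It was 26 with the filter, 26 with floor and filter together, 21 after quantile normalization (19 of them among the 25) and 30 without the treatment term, which pairs the arrays. Leaving out 1 array of any region in turn gave 0 to 60. For both regions against the other 3 the total was 28, and 15 with zeros raised (6 of the 28), 8 with the floor (3 of the 28), 8 after median scaling, 7 without the trend, 11 without the prefrontal cocaine array, 284 without it and the amygdala saline array, and 1 to 277 on leaving out 1 array in turn. The count at least 2-fold apart in both pairs was 14 to 17. Shared high level held 695 probe sets at the top 10% and 122 at the top 2%. The cause of these shifts was not tested.

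The values that turned sign belonged to probe sets not called between the regions, with differences from -0.51 (Atp5pb) to 0.30 (Vwf) as reported. Jund gave 0.12 with the floor and with zeros raised to it. Without the amygdala saline and prefrontal cocaine arrays Fosl1 gave -0.23, Fgf1 -0.059, Cd53 0.24, Vwf -0.18, Atp5pb 0.099 and Hspa2 -0.00125. On leaving out 1 array in turn, Fosl1 ran from -0.32 to 0.84, Jund from -0.79 to 0.43, Fgf1 from -0.088 to 0.63, Cd53 from -0.84 to 0.29, Vwf from -0.31 to 0.92, Atp5pb from -1.13 to 0.10, Ndufb5 from -0.78 to 0.00547, Hspa2 from -0.00781 to 0.57, Dnaja1 from -0.75 to 0.23, Hsph1 from -0.60 to 0.13 and Gda from -0.064 to 0.12 and from -0.053 to 0.12 by its 2 brighter probe sets.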

Other observations

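A wider set of genes was at least 1.5-fold apart in both pairs, 28 probe sets with the higher value in the amygdala and 36 in the accumbens. Those named here were chosen after their values were seen, and none was called between the regions. On the amygdala side, Bdnf, the neurotrophin of cortical projection neurons, read 1477 and 1379 (saline and cocaine) against 876 and 776 in the accumbens by one probe set (0.79 ± 0.18 on the log2 scale, limma adjusted p = 0.324). Of the other 6 Bdnf probe sets, 4 differed by no more than 0.27, so the gene's probe sets disagree. Nr2f1, a nuclear receptor known from cortical patterning, read 2379 and 4198 against 1057 and 1052 (1.58 ± 0.34, limma adjusted p = 0.3), while its other probe set differed by 0.05 ± 0.27. On the accumbens side, Nexn, an actin-binding protein, read 298 and 406 against 954 and 886 (-1.40 ± 0.28, limma adjusted p = 0.248), and its other probe set differed by -0.58 ± 0.17. All 4 Nexn values, like the accumbens values of Bdnf, lay below the index of 1028 that served as the floor, so these differences rest on dim signals. Ppp1r2, an inhibitor of protein phosphatase 1, read 3596 and 4390 against 7945 and 7091 (-0.92 ± 0.17, limma adjusted p = 0.195). Lpl, or lipoprotein lipase, read 1840 and 1497 against 2809 and 2646 (-0.72 ± 0.16, limma adjusted p = 0.321), with -0.80 and -0.50 by its other two probe sets. Cited2, a transcriptional coregulator, read 1434 and 909 against 2401 and 2443 by one probe set (-1.08 ± 0.27, limma adjusted p = 0.426), while its other two gave 0.01 and -0.13. By the probe sets whose values are given here, both arrays of one region lay above both arrays of the other. The choice of probe sets at least 1.5-fold apart in both pairs favours this, so it is no further support.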
